A study of Mus musculus with 11 samples.

Results

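The 10 genes described here belong to the epidermal growth factor (EGF) family and its signaling: the receptors Egfr, Erbb2 and Erbb3, the ligands Areg, Ereg, Hbegf, Tgfa, Btc and Epgn, and the adaptor Grb7. They were chosen by name from the 18305 genes of the count table, with earlier results of these data known, and were looked up in all 27 libraries. RNA came from oviduct tissue (3 libraries), tissue of the ovarian surface epithelium (OSE, 3 libraries), oviductal organoids (3) and OSE organoids (2) of wild-type C57BL/6 mice. Further groups were cultured: oviductal organoids of mice that express Cas9 and EGFP in every cell from the ROSA26 locus (Cas9-GFP oviductal organoids, 3 libraries), clonal lines grown from those organoids after guide RNAs to tumor suppressor genes, Trp53 and Brca1 among them, and selection in Nutlin-3a (TBP clones, 3), and organoids grown under Nutlin-3a from tumors of such clones (tumor-derived organoids, 4). The last group was tumors of oviductal TBP clones (TBP tumors, 6 libraries), which grew after injection into immunodeficient NSG females and so hold host stroma and host myeloid cells. No label ties these tumors to those that gave the tumor-derived organoids. The donor mice were young adult females. Each clone stems from 1 picked organoid, and the tumor-derived organoids are 2 lines with fibroblast-like cells (T1-mes and T3-mes) and 2 cystic epithelial lines (T2-epi and T4-epi). Every organoid was cultured with recombinant EGF and with a TGF-β receptor inhibitor. By the study's methods, oviductal and OSE organoids were grown in the same WNT- and estrogen-containing medium unless otherwise stated.

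Background helps to read these genes. EGF family ligands are made as membrane-bound precursors, which metalloproteases such as ADAM10 and ADAM17 cut to release the active peptide. The peptide pairs EGFR with itself or with another ERBB receptor, of which ERBB2 binds no known ligand and ERBB3 has a weak kinase, and the paired receptors feed the RAS to ERK and PI3K to AKT cascades. Several ligands, HB-EGF and amphiregulin among them, are themselves transcribed after ERK is active. Amphiregulin is known in the ovary as a mediator of the signal that luteinizing hormone sends from granulosa cells to the oocyte's surroundings.

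Values are CPM, gene counts relative to the library total, scaled by TMM factors over all 27 libraries, and are compared for 1 gene between libraries, not between genes. Reads were counted at the 3′ end of transcripts without collapsing molecular identifiers. Intervals from counts take each read as independent and leave out the spread between libraries, so they can be too narrow. Library totals ran from 82239 to 4531767 counts. TBP clones 1 was the shallow one, where 1 count stands for 11.2 CPM and a count of 0 allows 33.5 CPM (3 counts). Tests of members against or within the clones are given with and without it. Groups without overlap were common among all tested genes. Their share was 59.2% between the tissues, 54.6% in oviductal and 59.6% in OSE organoids against tissue. It was 29.7% in oviductal against OSE organoids and 42.4% in Cas9-GFP against C57BL/6 organoids. Clones against Cas9-GFP organoids had 17.6% and mes against epi lines 47.6%. Tumors had 34.2% against clones, 21.7% against tumor-derived organoids and 45.1% against oviduct tissue. In this table the members were sparse: Grb7 had 3061 counts over all libraries, Hbegf 1978, Egfr 591, Erbb2 403, Tgfa 321, Areg 290, Btc 233, Epgn 140, Ereg 17 and Erbb3 6.

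The labels held against marker genes with exceptions that touch these results. OSE tissue had 449 to 540 summed CPM of 8 epithelial markers, below the 1782 to 2206 of oviduct tissue, and 9733 to 12078 summed CPM of 9 granulosa and steroidogenic markers, against 63.1 to 282 in oviduct tissue. It also carried oocyte markers (595 to 739 summed CPM). OSE organoids 2 had 3422 summed CPM of oviduct secretory markers, and OSE organoids 1 had 62.6. Cas9-GFP oviductal organoids had 234 to 247, where the C57BL/6 oviductal organoids had 14829 to 23131. The tumors held 420 to 1313 summed CPM of 6 myeloid markers and 9662 to 57045 of 7 fibroblast markers, and all groups of organoids and clones had 44.9 or less of the myeloid markers. Trp53, a targeted gene, had 34.5 to 61.0 CPM in the Cas9-GFP organoids, 0, 0.536 and 5.02 CPM in TBP clones 1, 2 and 3, 4.37 to 9.22 CPM in the tumor-derived organoids and 18.3 to 57.1 CPM in the tumors. A tag at the 3′ end does not read the edited exon, so these levels do not show the edit itself.

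The members are spread over the mouse genome in a way that the results refer to. Erbb2 (chromosome 11, 98412470 to 98437716, GRCm38, GENCODE vM21) and Grb7 (chromosome 11, 98446394 to 98455373) are neighbors, 8.68 kb apart with no coding gene between them. The ligand genes Epgn (chromosome 5, 91027464 to 91035215), Ereg, Areg (91139599 to 91148432) and Btc follow each other on chromosome 5, with gaps of 39.4, 46.0 and 209 kb. Egfr lies elsewhere on chromosome 11 (16752203 to 16918158).

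RefSeq promoter windows (GRCm38.p6) were at hand for 6 of the 10 members: Egfr, Erbb2, Areg, Tgfa, Btc and Epgn. The 250 bases before the start of Areg and of Egfr are shown because these were the ligand and the receptor whose RNA went opposite ways between oviduct tissue and oviductal organoids. In Areg (chr5:91139349-91139598, plus strand) the capitals mark, from left to right, a cyclic AMP response element (CRE, TGACGTCA), an SP1 motif (GGGCGG) and a TATA box (TATAAA). They end 53, 46 and 25 bases before the start. In Egfr (chr11:16751953-16752202, plus strand) the capitals mark an ETS motif (CCGGAA, on the minus strand) and an SP1 motif (minus strand), which end 113 and 3 bases before the start.
Areg: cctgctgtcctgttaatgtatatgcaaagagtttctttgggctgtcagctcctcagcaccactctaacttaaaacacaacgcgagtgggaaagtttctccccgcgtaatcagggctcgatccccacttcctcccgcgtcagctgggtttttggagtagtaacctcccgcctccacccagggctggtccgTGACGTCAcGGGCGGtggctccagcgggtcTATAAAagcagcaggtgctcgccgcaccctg
Egfr: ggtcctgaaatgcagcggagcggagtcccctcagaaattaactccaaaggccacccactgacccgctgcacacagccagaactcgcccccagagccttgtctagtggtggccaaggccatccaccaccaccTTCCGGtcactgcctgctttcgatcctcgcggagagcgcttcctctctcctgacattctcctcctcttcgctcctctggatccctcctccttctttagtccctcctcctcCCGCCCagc
Searched on both strands, the CRE letters were in 1.55% of 32851 such windows, the TATA letters in 12.4%, the SP1 letters in 32.7% and the ETS letters in 12%. No motif here overlapped another. Among the other members, Tgfa held 2 SP1 motifs, Epgn a TATA box and Erbb2 a TEAD motif (CATTCC, in 12.6% of windows), Btc held none, and the AP-1 letters (TGANTCA, in 6.75% of windows) were in none of the 6. A match is a description of the letters, not of a bound site.

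**Figure D1:**
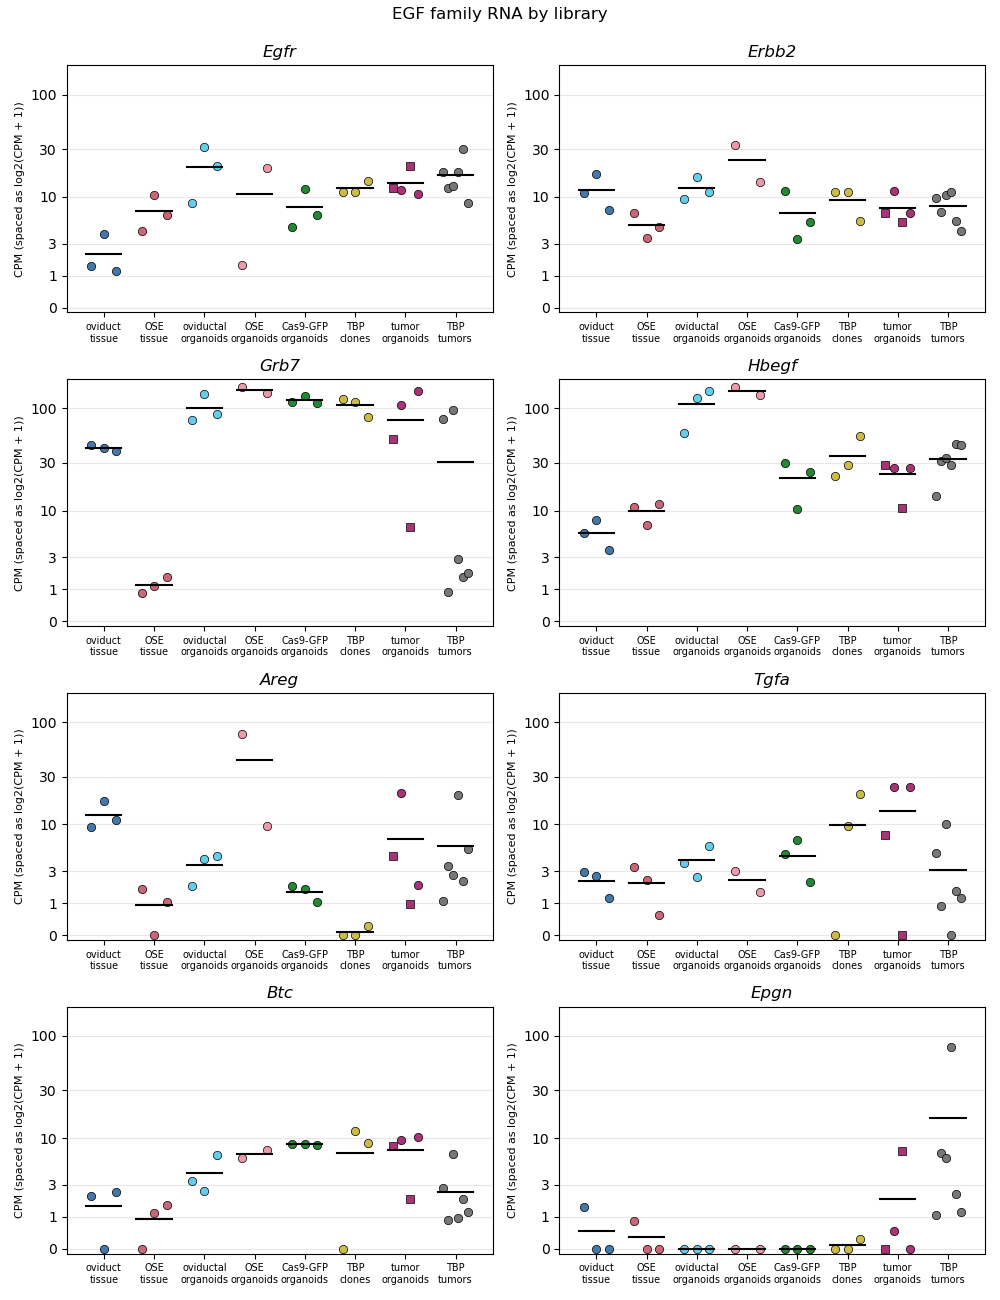
RNA of the 8 members with at least 100 counts in all, as CPM on an axis spaced as log2(CPM + 1), by group; a point is 1 library, squares are T1-mes and T3-mes, and the line is the arithmetic mean of the group's CPM. Grb7 lies between 0.846 and 1.59 CPM in OSE tissue and in 4 of 6 tumors between 0.874 and 2.84 CPM, Hbegf is highest in the C57BL/6 organoids, and Epgn reaches 78.5 CPM in TBP tumor 4.

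Egfr, the receptor of EGF itself, was lowest in oviduct tissue. There it had 1.45, 3.95 and 1.22 CPM, which are 2, 3 and 1 counts. In the oviductal organoids it had 8.58, 31.3 and 20.3 CPM, so that the 3 organoid libraries lay above the 3 tissue libraries. The ratio of the pooled levels was 8.82, with a 95% interval of 3.89 to 24.7 for counting error with reads taken as independent. The fitted log2 fold change was 3.18 ± 0.68 (SE, n = 3 and 3, edgeR's quasi-likelihood test, Benjamini-Hochberg adjusted p = 0.00247). OSE tissue had more Egfr than oviduct tissue, with 4.23, 10.5 and 6.37 CPM, and these ranges did not overlap. The gene was below the filter on low counts in that comparison and was not tested, and the ratio of the pooled levels was 3.26 (95% interval 1.31 to 9.70). OSE organoids 1 and 2 had 1.53 and 19.8 CPM, on either side of OSE tissue. The library with the higher value is that with the oviduct secretory markers, and the part of those markers in the difference was not tested.

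Cas9-GFP oviductal organoids had 4.78, 12.1 and 6.42 CPM of Egfr, overlapping the C57BL/6 organoids (log2 fold change -1.41 ± 0.56, SE, edgeR adjusted p = 0.0841). TBP clones 1, 2 and 3 had 11.2, 11.2 and 14.6 CPM, from 1, 21 and 64 counts. The value of TBP clones 1 is thus 1 count, and the clones' mean and SD rest in part on it. The tumor-derived organoids T1-mes, T2-epi, T3-mes and T4-epi had 12.3, 11.9, 20.4 and 10.7 CPM, and the 6 tumors ranged from 8.59 to 30.3 CPM with a median of 15.4. From the highest group mean to the lowest, Egfr ran from C57BL/6 oviductal organoids (20.1 ± 11.4 CPM, SD, n = 3) through tumors (16.7 ± 7.61, n = 6), tumor-derived organoids (13.8 ± 4.43, n = 4), clones (12.3 ± 1.96, n = 3), OSE organoids (10.6 ± 12.9, n = 2), Cas9-GFP organoids (7.76 ± 3.84, n = 3) and OSE tissue (7.03 ± 3.18, n = 3) to oviduct tissue (2.21 ± 1.51, n = 3). Neighbors in that order overlapped, other than the last pair. Against oviduct tissue the tumors were higher without overlap, with a log2 fold change of 2.93 ± 0.58 (SE, edgeR adjusted p = 0.00247) and a ratio of pooled levels of 8.92 (95% interval 4.03 to 24.6).

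Erbb2, the coreceptor that binds no ligand, had counts in every library, from 3.45 to 32.8 CPM. Oviduct tissue had 10.9, 17.1 and 7.33 CPM and the oviductal organoids 9.54, 16.1 and 11.2 CPM, which overlap (log2 fold change 0.03 ± 0.42, SE, edgeR adjusted p = 0.959). In the OSE pair the values were apart, with 6.77, 3.49 and 4.78 CPM in OSE tissue and 32.8 and 14.2 CPM in OSE organoids. Erbb2 rose there by a log2 fold change of 2.19 ± 0.51 (SE, n = 2 and 3; edgeR adjusted p = 0.0175). The call did not hold when OSE tissue 1, 2 or 3 was left out (adjusted p = 0.0542, 0.0785 and 0.0905). In the Cas9-GFP organoids Erbb2 had 11.5, 3.45 and 5.35 CPM, in the clones 11.2 (1 count in TBP clones 1), 11.2 and 5.48 CPM, in the tumor-derived organoids 5.34 to 11.4 CPM and in the tumors 4.30 to 11.4 CPM. No comparison among these groups passed the test, and every pair of neighbors in the order of group means overlapped.

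Erbb3, the receptor with the weak kinase that binds neuregulins, was at 0 in 24 of 27 libraries. Its 6 counts fell in T4-epi (4 counts, 1.94 CPM), TBP clones 2 and TBP clones 3 (1 count each). It was below the filter in all comparisons and was not detectable at this depth elsewhere.

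Grb7, an adaptor with an SH2 domain that docks on active ERBB2 and other receptor kinases, was the member with the most counts. Oviduct tissue had 44.3, 42.1 and 39.1 CPM and OSE tissue 0.846, 1.16 and 1.59 CPM, that is 1, 1 and 3 counts. The tissues were far apart: the ratio of pooled levels was 33.2 (95% interval 13.8 to 104), and the log2 fold change was 4.96 ± 0.38 (SE, n = 3 and 3; edgeR adjusted p = 6.06e-08). Organoids of both origins had more than their tissue, with 77.7, 138 and 87.9 CPM in oviductal and 159 and 139 CPM in OSE organoids. The log2 fold change against tissue was 1.25 ± 0.26 for the oviduct (SE, edgeR adjusted p = 0.00196) and 6.82 ± 0.34 for the OSE (SE, edgeR adjusted p = 0.000328), where the ratio of pooled levels was 115 (95% interval 49.1 to 357). The interaction of origin and culture was -5.45 ± 0.48 on the log2 scale (SE, edgeR adjusted p = 3.26e-05), so the rise with culture was larger for the OSE than for the oviduct. With all 27 libraries in the fit, the oviduct rise (adjusted p = 0.399) and the interaction (adjusted p = 0.0845) did not pass. In the organoids themselves the difference of -0.53 ± 0.32 between oviduct and OSE did not pass (edgeR adjusted p = 0.588), although the 2 OSE values lie above the 3 oviductal ones.

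Cultured oviductal cells kept Grb7 near that level, with 116, 131 and 113 CPM in Cas9-GFP organoids and 123, 114 and 83.3 CPM in TBP clones. The epithelial tumor-derived lines T2-epi and T4-epi had 108 and 146 CPM, and T1-mes and T3-mes had 50.6 and 6.79 CPM. Tumors fell into a low and a high set: TBP tumors 1 and 3 had 79.2 and 96.9 CPM, and TBP tumors 2, 4, 5 and 6 had 0.874, 2.84, 1.61 and 1.84 CPM. The epithelial markers moved with this. Their summed CPM was 2592 and 3379 in TBP tumors 1 and 3, 200 to 481 in the other 4 tumors, 386 in T3-mes and 3791 in T1-mes, 5086 and 5597 in T2-epi and T4-epi, and 449 to 540 in OSE tissue. The libraries with marker sums of 200 to 540 had 6.79 CPM of Grb7 or less, and those with sums of 1782 or more had 39.1 CPM or more. In bulk RNA, fewer cells of a type and less RNA per cell cannot be told apart, and the part of epithelial content in the Grb7 differences was not tested.

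**Figure D2:**
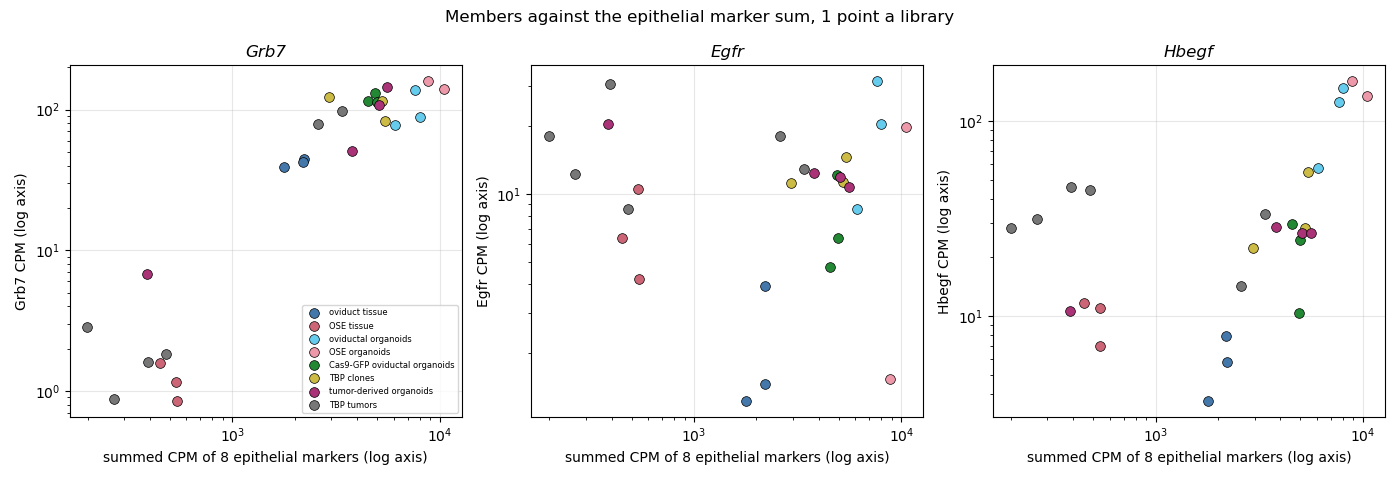
Grb7, Egfr and Hbegf CPM (log axis) against the summed CPM of 8 epithelial markers (log axis), with 1 point a library, colored by group. Grb7 separates into libraries at or under 6.79 CPM with marker sums of 200 to 540 and libraries at or above 39.1 CPM with sums of 1782 or more, while Egfr is 1.22 to 3.95 CPM in oviduct tissue and 8.59 to 30.3 CPM in tumors whatever their sum.

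Hbegf, the heparin-binding ligand that is also an early target of ERK, was the ligand with the most counts. Oviduct tissue had 5.81, 7.89 and 3.67 CPM and OSE tissue 11, 6.99 and 11.7 CPM. Oviductal organoids had 57.7, 125 and 147 CPM and OSE organoids 159.5 and 134 CPM, all above every tissue library. The log2 fold change of organoids against tissue was 4.22 ± 0.45 for the oviduct (SE, edgeR adjusted p = 1.75e-05) and 3.87 ± 0.29 for the OSE (SE, edgeR adjusted p = 0.000470). The interaction of 0.48 ± 0.60 did not pass (edgeR adjusted p = 0.685), so a difference between the origins was not detected. Both calls held in each alternative fit and without any 1 library.

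Organoids from Cas9-GFP mice had less Hbegf than those from C57BL/6 mice, with 29.6, 10.4 and 24.6 CPM. The groups did not overlap, which held for 42.4% of all genes tested there. The log2 fold change was -2.27 ± 0.40 (SE, n = 3 and 3, edgeR adjusted p = 0.00152). Immediate early genes moved alongside, with 872 to 1318 summed CPM of 12 genes in Cas9-GFP organoids and 5447 to 6375 in C57BL/6 oviductal organoids. So did the oviduct secretory markers given above, and the part of either in the Hbegf difference was not tested. TBP clones had 22.3, 28.4 and 54.5 CPM, the tumor-derived organoids T1-mes, T2-epi, T3-mes and T4-epi 28.7, 26.6, 10.7 and 26.7 CPM, and tumors 14.2 to 45.8 CPM with a median of 32.3. Tumors were above oviduct tissue without overlap (log2 fold change 2.46 ± 0.44, SE, edgeR adjusted p = 0.00139), although tumors also hold host cells. From the highest group mean down, Hbegf ran from OSE organoids (147 ± 18.2 CPM, SD) and C57BL/6 oviductal organoids (110.0 ± 46.6) through clones (35.1 ± 17.1), tumors (32.9 ± 11.5), tumor-derived organoids (23.2 ± 8.38), Cas9-GFP organoids (21.5 ± 9.99) and OSE tissue (9.89 ± 2.53) to oviduct tissue (5.79 ± 2.11). The step from the C57BL/6 oviductal organoids to the clones was the 1 place where neighbors did not overlap.

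Areg, amphiregulin, went opposite ways in the organoids of the 2 origins. Oviduct tissue had 9.43, 17.1 and 11 CPM and oviductal organoids 1.91, 4.23 and 4.59 CPM, without overlap. It fell by 1.82 ± 0.49 on the log2 scale (SE, n = 3 and 3; edgeR adjusted p = 0.00962), a call lost without oviduct tissue 2 (adjusted p = 0.0624) and in the fit of all 27 libraries (adjusted p = 0.165). In OSE tissue it had 1.69, 0 and 1.06 CPM, 4 counts in all, and in OSE organoids 1 and 2 it had 76.3 and 9.63 CPM. The ratio of pooled levels was 35.6 (95% interval 13.5 to 133) and the log2 fold change 5.28 ± 1.09 (SE, n = 2 and 3; edgeR adjusted p = 0.0109). That call was lost without OSE tissue 1, 2 or 3 (adjusted p = 0.0567, 0.0516 and 0.0686). The interaction of origin and culture was -6.98 ± 1.21 on the log2 scale (SE, edgeR adjusted p = 0.00368), and it passed in every alternative fit and without any 1 library. OSE tissue also held granulosa and oocyte RNA, and tissue and organoid RNA were extracted by different methods, so extraction and culture cannot be told apart.

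Between the organoids, Areg was lower in oviductal than in OSE organoids in each library. The log2 fold change of -3.55 ± 0.89 (SE, n = 3 and 2) did not pass in edgeR (adjusted p = 0.233), passed in DESeq2 (adjusted p = 0.0141), and passed in edgeR without OSE organoids 2 (-4.42, adjusted p = 0.000156), where 1 OSE library is left and is assumed to vary like the oviductal ones. Cas9-GFP organoids had 1.91, 1.73 and 1.07 CPM of Areg, and the TBP clones had 1 count over 3 libraries. T2-epi had 20.9 CPM, against 4.55, 0.970 and 1.94 CPM in T1-mes, T3-mes and T4-epi. TBP tumor 4 had 19.9 CPM and the other tumors 1.09 to 5.52 CPM. Neither set of 2 lines stood apart: each of T1-mes and T4-epi lay between the 2 values of the other kind.

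Epgn, epigen, was high in TBP tumor 4 only, with lower values in the other tumors and in T3-mes. It had 83 counts (78.5 CPM) in TBP tumor 4, 18 counts (6.10 CPM) in TBP tumor 3 and 8 counts (6.99 CPM) in TBP tumor 2, and 2 to 7 counts (1.09 to 2.26 CPM) in the other 3. T3-mes had 15 counts (7.28 CPM). Of the remaining 20 libraries, 16 were at 0 and 4 had 1 or 2 counts. Against the TBP clones, which had 1 count in all, the ratio of pooled levels was 65.0 (95% interval 11.4 to 2587), and all 6 tumors were above TBP clones 2 and 3. TBP clones 1 was at 0, which at its depth allows more than 5 of the 6 tumors had. The fitted log2 fold change of 6.14 ± 2.26 (SE, n = 6 and 3) did not pass in edgeR (adjusted p = 0.0586), nor did that of 6.18 without TBP clones 1 (adjusted p = 0.0901). TBP tumor 4, the tumor with the most Epgn and Areg, had the lowest sum of epithelial markers (200 CPM) and the highest sum of fibroblast markers (57045 CPM) among the tumors, and whether its ligand RNA came from tumor or host cells was not tested. Epgn and Areg are neighbors on chromosome 5 with only Ereg between them, and Ereg had 1 count in that tumor.

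Tgfa, transforming growth factor α, was highest in the epithelial tumor-derived lines, with 23.7 CPM in T2-epi and 23.8 CPM in T4-epi. T1-mes had 7.74 CPM and T3-mes was at 0, which allows 1.46 CPM. The mes lines were thus below the epi lines, but the log2 fold change of -2.59 ± 1.14 (SE, n = 2 and 2) did not pass in edgeR (adjusted p = 0.384). TBP clones 2 and 3 had 9.64 and 20.1 CPM, TBP clones 1 was at 0, tumors had 0 to 10.2 CPM (the highest in TBP tumors 3 and 1), and the other 5 groups had 0.531 to 6.91 CPM. As with Grb7, the 2 tumors with the most Tgfa were those with the most epithelial marker RNA.

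Btc, betacellulin, had 0 to 2.44 CPM in the tissues, 2.54 to 7.60 CPM in the C57BL/6 organoids and 8.60, 8.63 and 8.55 CPM in the Cas9-GFP organoids. TBP clones 2 and 3 had 11.8 and 8.90 CPM, and TBP clones 1 was at 0. T3-mes had 1.94 CPM and the other tumor-derived lines 8.20 to 10.2 CPM, and tumors had 0.874 to 6.78 CPM. Against the clones the tumors' log2 fold change was -1.80 ± 0.66 (SE, edgeR adjusted p = 0.0566), which did not pass. Without TBP clones 1 the tumors lay below the clones without overlap, and the log2 fold change of -1.98 did not pass (adjusted p = 0.0530). Ereg, epiregulin, never exceeded 4 counts in a library, with 17 counts in all and 18 libraries at 0.

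**Figure D3:**
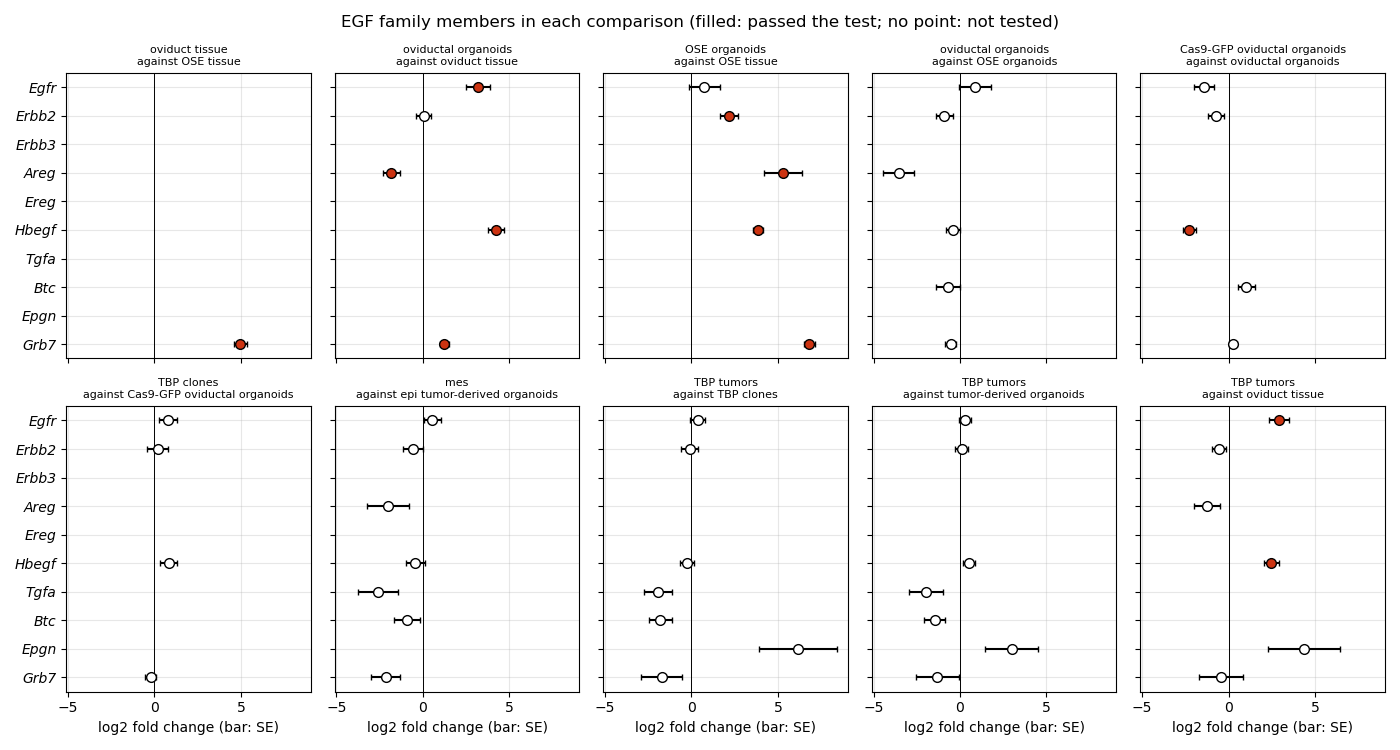
Log2 fold change (horizontal axis, bar = SE) of each member in the 10 comparisons of 2 groups; filled points passed the test, open points did not, and members without a point were below the filter on low counts. Grb7 is at 4.96 between the tissues, Hbegf at 4.22 and 3.87 in organoids against tissue, Egfr and Hbegf at 2.93 and 2.46 in tumors against oviduct tissue, and 5 comparisons have no filled point.

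The members' calls are given here beside the share of all tested genes called, with the pathway lists as counts. A gene was called at an adjusted p under 0.05. Between oviduct and OSE tissue, 1 of the 1 member tested was called (Grb7, higher), where 51.2% of 8787 genes were called (26.9% higher and 24.3% lower). The other 9 members were below the filter there. In the tissues the 12 immediate early genes were all lower in the oviduct, with a median log2 fold change of -4.29 (0.00 over all genes tested), Fosb (-7.29), Atf3 (-5.60) and Egr2 (-5.49) furthest. Their summed CPM was 10976 to 23403 in OSE tissue and 1534 to 2246 in oviduct tissue. Of 9 tested ERK feedback and response genes, 3 were higher and 3 lower in the oviduct: Ccnd1 (cyclin D1) was higher by 5.47 and Phlda1 by 1.74, and Egr1, an immediate early gene too, was at -4.64. Among 9 receptor brakes and turnover genes, 3 were higher and none lower: Ptprj (1.74), a phosphatase acting on receptors, the inhibitor Lrig1 (1.53), and Lrig3 (1.03). Of 7 shedding genes, 3 were higher and 1 lower (Adam17, the main ligand sheddase, -0.95), and of 22 adaptor and cascade genes, 3 were higher and 2 lower, the latter led by the docking protein Gab2 (-1.88).

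In oviductal organoids against oviduct tissue, 4 of 5 tested members were called, 3 higher (Egfr, Hbegf and Grb7) and 1 lower (Areg). Over all genes 42.9% of 9477 were called (18.7% higher and 24.2% lower). All 12 tested ERK feedback and response genes were higher, with a median log2 fold change of 2.28 (-0.02 over all genes tested), led by Egr1 (4.37), the receptor kinase Epha2 (3.90) and the feedback inhibitor Spry4 (3.62). Of the immediate early genes 11 of 12 were higher (median 3.46). Of 10 brakes, 4 were higher and none lower, led by Errfi1 (2.69), an inhibitor that binds the EGFR kinase, the ubiquitin ligase Cblc (2.22) and the phosphatase Ptpn1 (1.64). Of 8 shedding genes, Adam9 (2.63) and the convertase Furin (1.57) were higher and Timp3 (-5.83), a metalloprotease inhibitor, was lower. The 22 adaptor and cascade genes split into 6 higher and 6 lower, with Gab2 (-2.42), Gab1 (-1.65) and Pik3cb (1.03) furthest. Smooth muscle and fibroblast markers, 4913 to 5783 and 3816 to 7029 summed CPM in the tissue, were at 5.25 or less in the organoids, and the part of lost stroma in these differences was not tested.

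OSE organoids against OSE tissue gave 4 calls among 5 tested members, all higher (Erbb2, Areg, Hbegf and Grb7). The share over all genes was 33.1% of 10232 (14.5% higher and 18.6% lower). Without OSE tissue 1, 2 or 3, 2 members stayed called (Hbegf and Grb7), where 18.6% to 19.6% of all genes were. Without OSE organoids 1, which leaves 1 organoid library assumed to vary like the tissue, 5 were called, Egfr among them, and so were 54% of all genes. Of 12 tested ERK feedback and response genes 7 were higher and none lower (median 2.33, against -0.06 over all genes), led by Ccnd1 (5.66), Phlda1 (5.40) and Epha2 (4.63). Brakes were higher in 5 of 12, with Cblc (5.14), Errfi1 (3.01) and Ptprj (2.13) furthest. Here the immediate early genes did not follow: 2 of 12 were lower (Jun, -1.60, and Jund, -1.41) and none higher. Shedding genes again had Adam9 (3.82) and Furin (1.83) higher and Timp3 (-3.03) lower among 8, and of 22 cascade genes 2 were higher and 4 lower, with Gab2 (-3.68), Pik3cb (1.98) and Gab1 (-1.39) furthest. Cell type markers moved alongside: all 8 epithelial markers were higher (median 4.84), and all tested granulosa (9), oocyte (5), fibroblast (7) and smooth muscle (3) markers were lower. Their part in the members' and lists' differences was not tested. The 2 comparisons of organoids with tissue share no library.

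The interaction of origin and culture was called for 2 of 5 tested members (Areg and Grb7), both lower, where 11.7% of 11458 genes were called (5% higher and 6.68% lower). It asks whether the difference between organoids and tissue is alike in the 2 origins. Without OSE organoids 2, which leaves 1 OSE organoid library, 4 members were called (Egfr and Erbb2 in addition) and 19.1% of all genes. Of the 8 epithelial markers 7 were called lower too (median -2.73), and their part in the Areg and Grb7 terms was not tested. The 12 immediate early genes were all called, with a median of 3.68 (0.04 over all genes). In culture 11 of the 12 were higher for the oviduct, and 2 were lower for the OSE. ERK feedback and response genes gave 1 higher and 2 lower of 16, Egr1 (4.34), Ccnd1 (-4.42) and Phlda1 (-2.10). Brakes gave 3 lower of 12 (Cblc -2.82, Ptprj -2.11 and Lrig3 -1.97), shedding 1 of 8 (Timp3 -2.67) and the cascade 1 of 22 (Shc1 -1.24).

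Oviductal against OSE organoids gave no call among 6 tested members in edgeR, 1 at an unadjusted p under 0.05 (Areg) and 1 in DESeq2 (Areg). Few genes passed at all: 0.0864% of 9257 (0.0864% higher and 0% lower), with 1060 at an unadjusted p under 0.05, and none of the 5 pathway lists had a called gene. Without OSE organoids 2, which leaves 1 OSE library assumed to vary like the others, Egfr and Areg were called, and the share over all genes was 14.7%.

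Cas9-GFP against C57BL/6 oviductal organoids gave 1 call among 5 tested members, Hbegf, which was lower. Over all genes 26.3% of 8323 were called (13% higher and 13.3% lower). The replicate block and the fit without oviductal organoids 1 called Egfr as well (26.6% and 28.1% of all genes). ERK feedback and response genes were lower in 11 of 12, with a median of -2.0 (0.00 over all genes), Spry4 (-3.01), Egr1 (-2.98) and Ccnd1 (-2.42) furthest. Immediate early genes were lower in 11 of 12 (median -3.19), led by Fosb (-6.30), Atf3 (-5.79) and Nr4a1 (-5.20). Of 10 brakes 1 was lower, Errfi1 (-1.95). None of 8 shedding genes was called, and 2 of 22 cascade genes were higher, Map2k1 (0.61) and Akt1 (0.57). The 2 groups differ in mouse strain as well as in Cas9 and EGFP, and these cannot be told apart.

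TBP clones against Cas9-GFP organoids gave no call among 4 tested members in edgeR or DESeq2, and none had an unadjusted p under 0.05. Over all genes 0.817% of 7708 were called (0.389% higher and 0.428% lower). The fitted log2 fold changes were 0.80 ± 0.53 (SE) for Egfr, 0.20 ± 0.61 for Erbb2, 0.82 ± 0.47 for Hbegf and -0.20 ± 0.32 for Grb7. TBP clones 1, the shallow library, is 1 of the 3 clone libraries, and without it no member was called. The study describes fewer independent clones than that for each combination of mutations, so some of these libraries may share a clone. Among the lists Dusp4, a phosphatase of ERK, was higher by 2.96 and was the 1 called gene of the 12 ERK feedback and response genes, a call lost without TBP clones 1 (edgeR adjusted p = 0.0624), where Dusp6, another such phosphatase, was called (1.99, adjusted p = 0.0432). None of 7 shedding, 21 cascade, 11 brake or 9 immediate early genes was called.

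Between the mes and epi lines, where a log2 fold change beyond 2 was also asked, no member of 7 tested was called in edgeR or DESeq2, and 1 had an unadjusted p under 0.05 (Grb7, -2.14 ± 0.84, SE, edgeR adjusted p = 0.336). Over all genes 1.13% of 9775 were called (1% higher and 0.123% lower). Without T1-mes, which leaves T3-mes as the 1 mes line and assumes that it varies like the epi lines, Tgfa and Grb7 were called, and 11.9% of all genes. T1-mes lay between T3-mes and the epi lines for Grb7, Tgfa and Btc, and its epithelial marker sum did too. Timp3, higher in the mes lines by 5.05, was the 1 called gene of the 8 shedding genes. Fibroblast markers moved with it, 5 of 7 higher, with 3126 and 7546 summed CPM in T1-mes and T3-mes against 31.3 and 102 in T2-epi and T4-epi, and their part was not tested. None of the 22 cascade, 11 brake, 17 ERK response or 11 immediate early genes was called.

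TBP tumors against TBP clones gave no call among 7 tested members in edgeR or DESeq2, and 3 had an unadjusted p under 0.05 (Tgfa, Btc and Epgn). Over all genes 31.8% of 10473 were called (20.1% higher and 11.7% lower). Without TBP tumor 1, 5 or 6 Epgn was called (27.6% to 29.1% of all genes), and without TBP clones 1 Areg was (34.2%). ERK feedback and response genes moved both ways, 5 higher and 4 lower of 16, with Ier3 (-3.18), Phlda1 (-3.0) and Spry1 (2.36) furthest. Of 9 shedding genes Timp3 (8.73) and Adam12 (5.24) were higher and Furin (-2.52) lower. Of 22 cascade genes 3 were higher and 4 lower (Nras 1.95, Mapk3 -1.56 and Map2k1 -1.52), of 11 brakes 1 was higher and 1 lower (Socs5 1.92 and Ptpn1 -0.75), and of 11 immediate early genes 3 were higher and 1 lower (Egr2 2.84, Nr4a1 2.58 and Jun 2.51). Without TBP clones 1 the call of Socs5 was lost, with 0 of 11 brakes higher and 1 lower. The cascade then had 3 higher and 5 lower of 22.

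Against the tumor-derived organoids the tumors gave no call among 7 tested members in edgeR or DESeq2, and 1 had an unadjusted p under 0.05 (Btc, -1.47 ± 0.62, SE, edgeR adjusted p = 0.101). Over all genes 27.4% of 10605 were called (15.1% higher and 12.3% lower). Without T3-mes, Tgfa and Btc were called, and 31.3% of all genes. ERK feedback and response genes had 1 higher and 5 lower of 16 (Ier3 -2.98, Spry2 -2.25 and Dusp4 -2.10), shedding genes 2 higher and 2 lower of 9 (Adam12 6.11, Timp3 4.81 and Furin -1.23), the cascade 2 higher and 5 lower of 22 (Mapk3 -1.93, Gab2 1.64 and Nras 1.21), brakes 1 lower of 11 and immediate early genes 1 higher and 1 lower of 11.

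TBP tumors against oviduct tissue gave 2 calls among 6 tested members, Egfr and Hbegf, both higher. Over all genes 46.1% of 10827 were called (23.7% higher and 22.4% lower). Areg was called too without TBP tumor 4 (45.1% of all genes). Of 15 tested ERK feedback and response genes 10 were higher and 1 lower (median 1.67, against 0.08 over all genes), led by the urokinase receptor Plaur (4.74), Spred3 (3.93) and Epha2 (3.91). Brakes were higher in 4 of 11, with Cblb (2.59), Socs5 (1.75) and Errfi1 (1.42) furthest. Shedding genes were higher in 3 of 9 and lower in 1 (Adam12 3.27, Adam9 2.38 and Adam17 1.21), the cascade gave 5 higher and 4 lower of 22 (among them Mapk3 -2.98 and Nras 2.33), and immediate early genes 4 higher and 1 lower of 11 (Egr2 2.39, Egr1 2.02 and Zfp36 1.70). This comparison shares oviduct tissue with the first 2, and the 3 comparisons of tumors share the tumors.

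**Figure D4:**
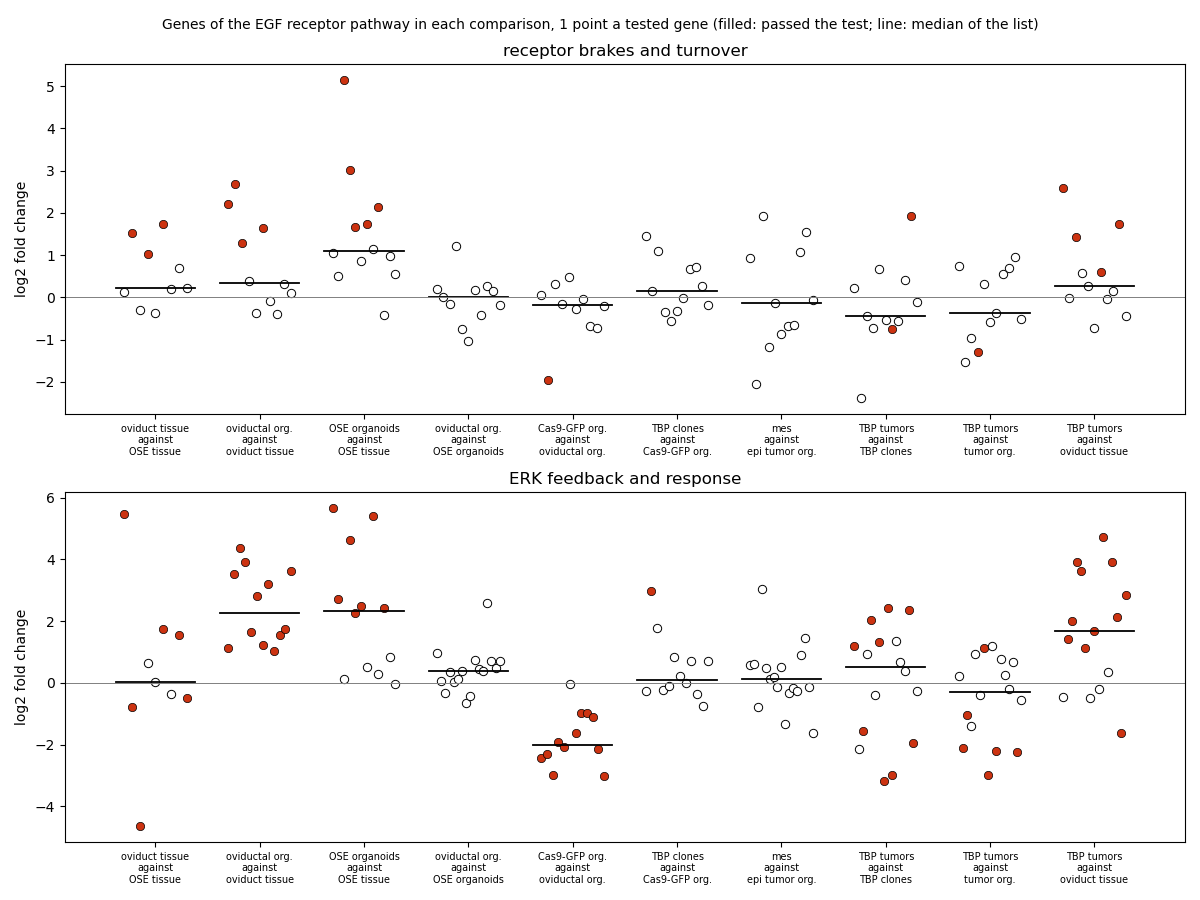
Log2 fold change (vertical axis) of the tested receptor brake genes and of the tested ERK feedback and response genes in the 10 comparisons; a point is 1 gene, filled where it passed the test, and the line is the list's median. The ERK response list has its highest medians in organoids against tissue (2.28 and 2.33) and its lowest in Cas9-GFP against C57BL/6 organoids (-2.0).

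Of the other ERBB ligands, Nrg4, a neuregulin that binds ERBB4, had the clearest pattern. It had 7.26, 3.95 and 2.44 CPM in oviduct tissue, 0, 1.16 and 0.531 CPM in OSE tissue, 8.58, 18.6 and 8.53 CPM in oviductal organoids and 27.5 and 42.0 CPM in OSE organoids. It rose in OSE organoids by 5.90 ± 0.65 on the log2 scale (SE, edgeR adjusted p = 0.00128), with a ratio of pooled levels of 71.1 (95% interval 19.3 to 594), and not detectably in oviductal organoids (1.20 ± 0.52, edgeR adjusted p = 0.0833). The interaction was -4.56 ± 0.98 (SE, edgeR adjusted p = 0.0107). From clones to tumors it fell by 3.28 ± 0.86 (SE, edgeR adjusted p = 0.0143), with 0 to 5.46 CPM in tumors and 0, 21.4 and 14.8 CPM in clones. The overlap rests on the shallow TBP clones 1, and without it the tumors lay below the clones and the call held (-3.50, adjusted p = 0.0189). Egf, the ligand that the medium supplies, had 16 counts in all, of which 11 were in tumors, and Nrg1 had 41 counts, 25 of them in tumors. Erbb4, Nrg2 and Nrg3 had no row under these names in the counts used, so they were not analysed here.

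The genes whose pattern was most like a member's were found by Pearson's correlation of log2 CPM over the 26 libraries with at least 500000 counts, among 6330 genes. For Grb7 these were Elf3 (r = 0.982) and Wfdc2 (r = 0.980), for Hbegf Ctgf (r = 0.898) and Anxa3 (r = 0.866), for Egfr Ap3s1 (r = 0.805) and Slc30a4 (r = 0.764), and for Erbb2 Limk2 (r = 0.728) and Nanp (r = 0.684). Elf3 and Wfdc2 are known as genes of epithelia and Ctgf as a secreted matrix protein. The libraries share groups, so r describes the order of groups more than that of replicates. The other 6 members had too few counts for this search. Between Grb7 and its neighbor Erbb2 r was 0.496, and among the 4 members of the search it ran from -0.199 (Egfr and Erbb2) to that value.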

How the data were processed

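The 27 libraries, in 11 deposited sample records, were made by CEL-Seq2, which counts reads at the 3′ end of transcripts. The authors mapped reads to GRCm38 using BWA and deposited raw counts of uniquely mapped reads for each gene, neither normalized nor collapsed by molecular identifier, and per the labels used DESeq2 1.18.0 themselves. Of 18306 rows, 1 spike-in entry with 1 count was dropped. Members and pathway lists were chosen with earlier results of these data known, so no count over them is independent evidence.

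The test was edgeR's quasi-likelihood test (version 4.0.16, R 4.3.3) with TMM factors and filterByExpr for just the groups compared, and Benjamini-Hochberg adjustment over all genes that passed the filter (threshold 0.05, with a log2 fold change beyond 2 as well for mes lines against epi lines). The SE is the log2 fold change divided by the root of F. Ratios of pooled levels carry exact binomial intervals (95%) that take reads as independent. The interaction was fitted on both tissues and the C57BL/6 organoids. Alternatives were DESeq2 1.42.0, RLE size factors, no filter, all 27 libraries in 1 fit, each library left out, a replicate block, no fold threshold and CPM without TMM. Scripts were tested on simulated counts. From each list (shedding and processing, adaptors and cascade, receptor brakes and turnover, ERK feedback and response, immediate early) up to 3 genes are named per comparison, the called genes with the largest absolute log2 fold change whose groups do not overlap. In 1 comparison a gene that this rule names is not reported here.

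Totals were 82239 to 4531767 counts, with 0 taken to allow 3 counts. No replicate pair of 33 agreed within sampling noise (chi-square per gene 2.53 or more). The study's methods describe the tissue samples, organoid lines and tumors as independent, and the labels do not tie libraries to animals. Tissue RNA was extracted with Trizol and organoid RNA with a column kit. Promoter windows came from RefSeq (GRCm38.p6) and positions from GENCODE vM21. Of 3 OSE organoid lines, 1 had been excluded by the authors and was not analysed here.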

Additional observations from a re-analysis of the deposited data

Results flagged for a closer look

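Among the 18 sets of values looked at (9 genes, in the 4 tumor-derived organoids and the 6 tumors), 6 had a library far from the others by Dixon's ratio. Chance alone passes it in about 1 of 20 groups of independent, normally distributed values. Some values here rest on few counts, the 4 lines mix mes and epi, and the genes share libraries, so that rate need not hold. T3-mes stood apart for Egfr (20.4 CPM, high), Hbegf (10.7 CPM, low) and Epgn (7.28 CPM, high). TBP tumor 4 stood apart for Areg (19.9 CPM) and Epgn (78.5 CPM), both high, and TBP tumor 3 for Btc (6.78 CPM, high). T3-mes had the lowest epithelial marker sum of the 4 lines (386 CPM, against 3791 to 5597) and TBP tumor 4 the lowest of the 6 tumors (200 CPM), and the part of this in the values was not tested.

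The difference between organoids and tissue was not the same in the oviduct and the OSE for 3 genes, by the interaction term of edgeR: Areg (-6.98 on the log2 scale), Grb7 (-5.45) and Nrg4 (-4.56), each with a smaller rise, or a fall, in the oviduct. The OSE arm has 2 organoid libraries, and its tissue carries granulosa and oocyte RNA. Of the 8 epithelial markers 7 had a lower interaction term as well (median -2.73), and the part of these was not tested.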

How the results depend on the processing

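Of the 11 counts of members called, none changed with RLE size factors or without the fold threshold for mes against epi lines. Without the filter on low counts, the tissues gave 4 calls (Egfr, Erbb2, Areg and Grb7) in place of 1, Cas9-GFP against C57BL/6 organoids 2 and tumors against clones 1 in place of 0, where 37%, 19.9% and 22.2% of all genes were called. In the fit of all 27 libraries the tissues gave 2 calls, oviductal organoids against oviduct tissue 2 in place of 4, tumors against clones 4 (Areg, Tgfa, Btc and Epgn), tumors against tumor-derived organoids 1 (Epgn) and the interaction 1 (Areg), where 23.2%, 25.5%, 41%, 34.7% and 5.24% of all genes were called. DESeq2 gave 1 call (Areg) between oviductal and OSE organoids, and 2.85% of all genes. The cause of these changes was not tested. Leaving out 1 library, the count ran from 1 to 1 for the tissues, 3 to 4 for oviductal organoids against tissue, 2 to 5 for OSE organoids against tissue, 0 to 2 for oviductal against OSE organoids, 1 to 2 for Cas9-GFP against C57BL/6 organoids, 0 to 0 for clones against Cas9-GFP organoids, 0 to 2 for mes against epi lines, 0 to 1 for tumors against clones, 0 to 2 for tumors against tumor-derived organoids, 2 to 3 for tumors against oviduct tissue and 2 to 4 for the interaction. No direction of a called member was reversed. Of 56 mean levels, 5 moved by more than their SD in CPM without TMM.

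Library numbers are shared between groups, but no source says what they mark. Same-numbered libraries had correlations of 0.024 to 0.0997 between their deviations from the group means, under 0.1. In the pairs of groups looked at, each library of the first group correlated best with its own number in the second, a hint from the data only. These pairs took in the tissues, the C57BL/6 and Cas9-GFP oviductal organoids and the clones, and no other group. With the replicate block, Cas9-GFP against C57BL/6 organoids gave 2 calls (Egfr and Hbegf) in place of 1, and the 4 other comparisons that could be blocked kept their counts of 1, 4, 0 and 0. For mes against epi lines the block was the sample record that holds both lines. The depth limits Erbb3 and Ereg in all groups and every member in TBP clones 1.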
